A study of Mus musculus with 24 samples.

Results

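The cytochrome P450 genes of the mouse were placed on maps of chromatin bound by lamin A/C, LAP2alpha and lamin B1 in immortalized mouse dermal fibroblasts. The 98 genes are all protein-coding genes of the mm9 annotation (GENCODE M1) whose symbol is Cyp followed by a digit, out of 22225 protein-coding symbols. Another Cyp gene lay within 200 kb of 73 of them, which formed 12 clusters, and the other 25 were single genes, so that the 98 genes fell into 37 loci. The 2 genes with the suffix -ps, Cyp2j7-ps and Cyp2d37-ps, are annotated as protein-coding and were kept.

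Chromatin immunoprecipitation followed by sequencing (ChIP-seq) was done on Tmpo KO cells, which lack LAP2alpha (Lap2alpha -/-), and on Tmpo WT cells (Lap2alpha +/+), in each case on fixed nuclei sonicated for 30 or for 12 cycles. The antibody N18 recognizes the N terminus of lamin A/C and the antibody 3A6 its C-terminal Ig fold, and both were used on KO and WT cells. For LAP2alpha and for lamin B1 there are libraries of WT cells alone. Each of the 12 combinations was 1 library, so no test across samples was possible and each difference given here has no replicate check. How many cultures of each genotype gave the libraries is not stated. The absence of LAP2alpha and the fibroblast identity could not be examined in lists of regions. A further 4 input and 8 histone mark samples were not analysed here.

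Each library had 194 to 370 broad domains called with EDD (enriched domain detector), which covered 9.04% to 36.2% of the genome, and 4183 to 9159 shorter SICER islands holding 3989494 to 13601739 reads. The N18 and 3A6 libraries of both genotypes shared 1 flow cell lane at 30 cycles and another at 12 cycles, so that KO and WT lay in the same lane, but sonication and lane cannot be told apart. The same holds for LAP2alpha, while both lamin B1 libraries shared a lane. The LAP2alpha library at 30 cycles held no domain on chromosomes 3, 8 and 19, which hold 22 of the 98 Cyp genes. The N18 and 3A6 libraries of KO cells at 12 cycles held none on chromosome 10 (Cyp27b1), and the 3A6 library of KO cells at 30 cycles none on chromosome 16 (Cyp2ab1).

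P450 enzymes are heme-containing monooxygenases. Those of families 1 to 4 act mostly on drugs, other foreign compounds and fatty acids, and many are best known from the liver. In the genome many of their genes lie in tandem arrays of related genes. The other families have narrow tasks in the synthesis or breakdown of steroid hormones, bile acids, cholesterol, vitamin D and retinoic acid, and most of these enzymes come from single genes. Lamin B1 sits at the nuclear periphery, where it contacts gene-poor, compact chromatin (lamina-associated domains), whereas lamin A/C is found both there and in the nuclear interior, where it binds LAP2alpha. After 12 cycles some DNA, thought by the authors to be compact chromatin, remains in pieces too long to be sequenced, and the longer sonication was meant to reach it.

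A gene was counted as inside when EDD domains covered at least 50% of its body. At 30 cycles, 46 of the 98 Cyp genes were inside N18 domains in KO cells and 18 in WT cells. With 3A6 at 30 cycles, 32 Cyp genes were inside in KO cells and 28 in WT cells. LAP2alpha domains at 30 cycles held 35 Cyp genes and lamin B1 domains 43. At 12 cycles, 40 Cyp genes were inside N18 domains in KO cells and 15 in WT cells. With 3A6 at 12 cycles, 33 Cyp genes were inside in KO cells and 42 in WT cells. LAP2alpha domains at 12 cycles held 39 Cyp genes, and lamin B1 domains held 8.

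Those counts stood beside different backgrounds. At 30 cycles, N18 domains held 46.9% of Cyp genes and 28.5% of all protein-coding genes in KO cells, and 18.4% of Cyp genes and 5.89% of all genes in WT cells. With 3A6 the values were 32.7% of Cyp genes and 12.6% of all genes in KO cells, and 28.6% of Cyp genes and 9.39% of all genes in WT cells. For LAP2alpha they were 35.7% of Cyp genes and 32.3% of all genes, and for lamin B1 43.9% of Cyp genes and 16.7% of all genes. At 12 cycles, N18 domains held 40.8% of Cyp genes and 23.1% of all genes in KO cells, and 15.3% of Cyp genes and 27.4% of all genes in WT cells. With 3A6 the values were 33.7% of Cyp genes and 10.7% of all genes in KO cells, and 42.9% of Cyp genes and 21.1% of all genes in WT cells. For LAP2alpha at 12 cycles they were 39.8% of Cyp genes and 35.9% of all genes, and for lamin B1 8.16% of Cyp genes and 7.77% of all genes. The Cyp share was thus above the share of all genes in 11 of 12 libraries, narrowly so for LAP2alpha and for lamin B1 at 12 cycles, and below it for N18 in WT cells at 12 cycles. When all genes were weighted to the chromosomes of the Cyp genes, their share was 14.4% for lamin B1 at 30 cycles, close to the unweighted 16.7%, but 41.7% for LAP2alpha at 12 cycles, above the 39.8% of the Cyp genes.

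**Figure D1:**
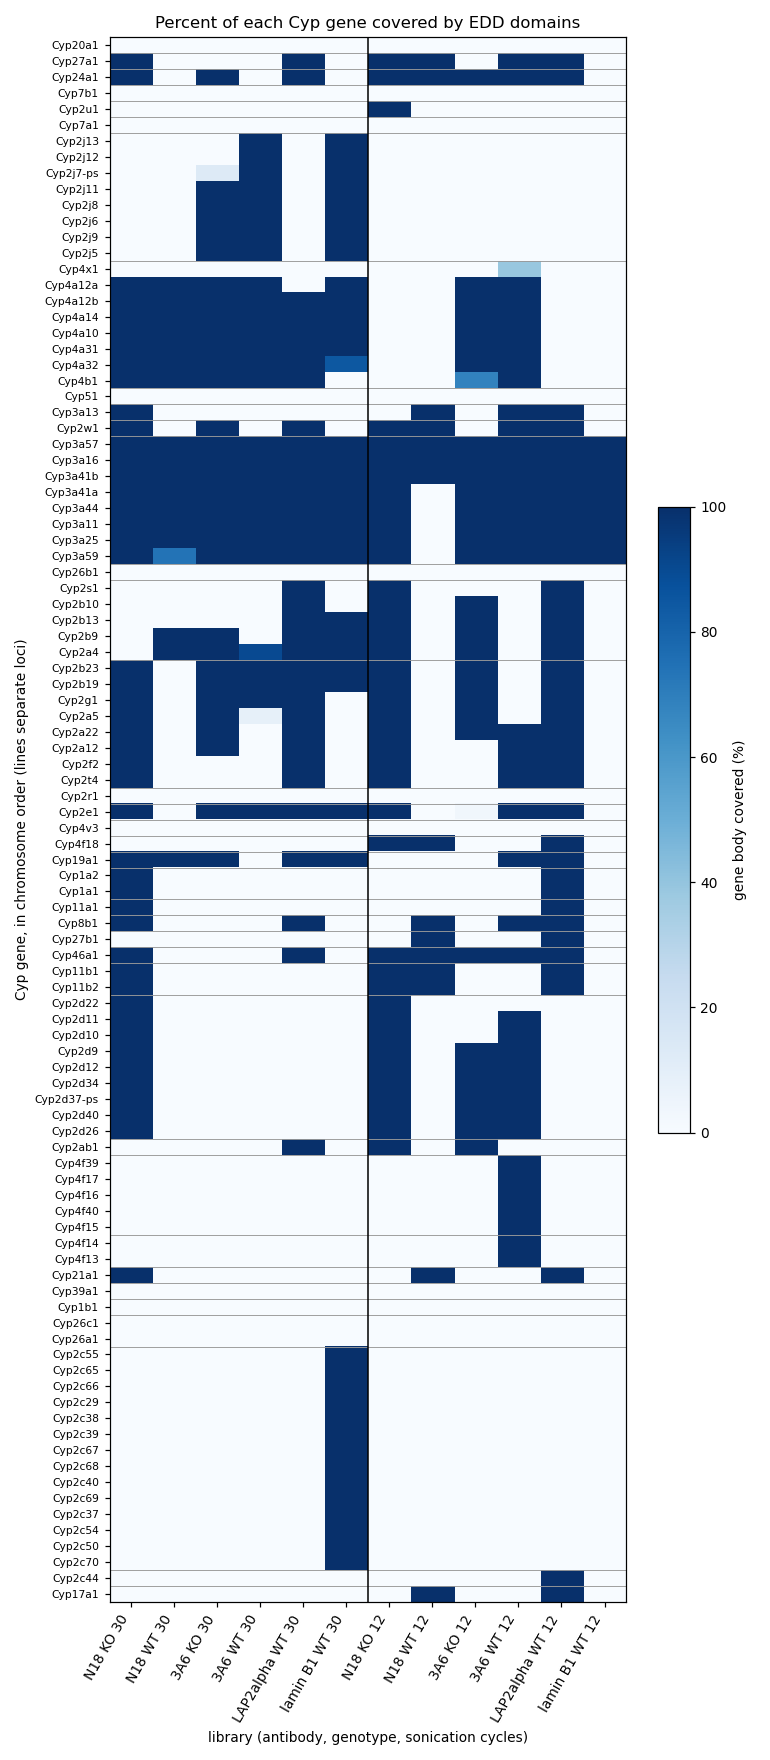
Percent of each Cyp gene body covered by EDD domains (color, 0 to 100%), with the 98 genes in chromosome order down the page and the 12 libraries across it, 30 cycles left of 12 cycles and KO left of WT; thin lines separate loci. Nearly every cell is at 0 or 100%, the Cyp3a block is filled in all libraries but the N18 WT library at 12 cycles, where 3 of its 8 genes are covered, and the Cyp2c block is filled in the lamin B1 library at 30 cycles alone.

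Because the genes of an array share their domains, the count of genes was mostly a count of a few loci. Of the 144 pairs of cluster and library, the cluster lay wholly inside domains in 31, wholly outside in 91 and was split in 22. Counted once per locus (inside when at least 50% of its genes were), the Cyp share at 30 cycles was 18.9% of 37 loci for lamin B1, against 43.9% by gene. In the 3A6 WT library at 30 cycles it was 10.8% of loci against 28.6% of genes, and in the N18 WT library at 30 cycles 8.11% of loci against 18.4% of genes. In the N18 WT library at 12 cycles the locus value was the higher one, at 29.7% of loci against 15.3% of genes. By locus, the Cyp value was above the share of all genes in 11 of 12 libraries, but in several it lay within a few points of it. At 30 cycles these were lamin B1 (18.9% of loci against 16.7% of all genes) and LAP2alpha (32.4% against 32.3%). In WT cells they were 3A6 (10.8% against 9.39%) and N18 (8.11% against 5.89%) at 30 cycles, and N18 at 12 cycles (29.7% against 27.4%). For lamin B1 at 12 cycles 2.7% of loci stood against 7.77% of all genes. The value of 2.7% is 1 of 37 loci, the Cyp3a cluster.

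Clustered and single Cyp genes differed in which libraries they were found. Clustered genes had the higher share in 10 of 12 libraries. The widest gap was with lamin B1 at 30 cycles, where 41 of 73 clustered genes (56.2%) and 2 of 25 single genes (8%) were inside. In the 3A6 WT library at 30 cycles 37% of clustered and 4% of single genes were inside. The order turned round in the N18 WT library at 12 cycles, with 6.85% of clustered and 40% of single genes, and with LAP2alpha at 12 cycles, with 34.2% of clustered and 56% of single genes. Single genes were above the share of all genes in 7 of 12 libraries.

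**Figure D2:**
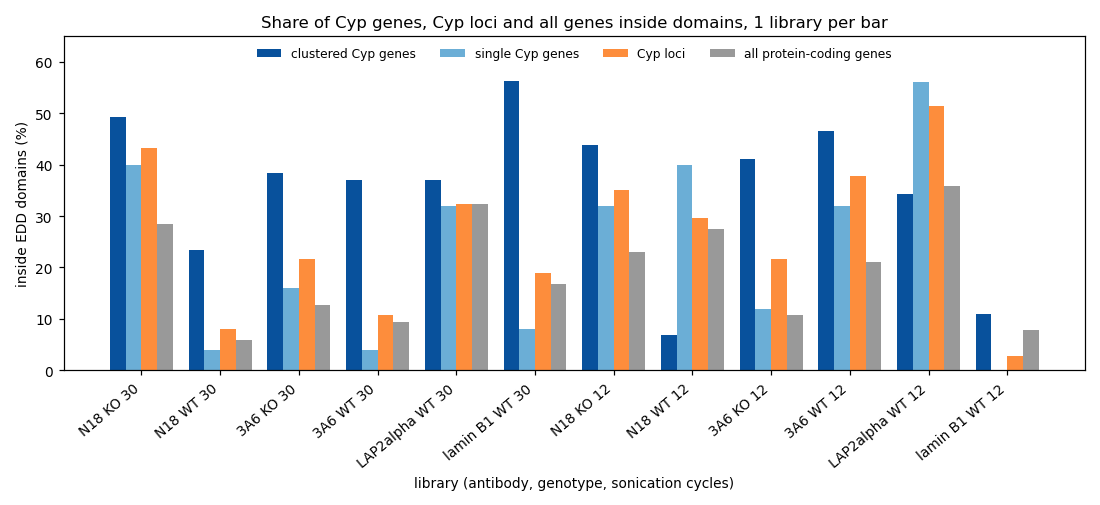
Percent inside EDD domains in each of the 12 libraries (1 library per group, no error bars) for clustered Cyp genes (dark blue), single Cyp genes (light blue), Cyp loci counted once each (orange) and all protein-coding genes (gray). Clustered genes reach 56.2% with lamin B1 at 30 cycles, where single genes are at 8%, while with LAP2alpha at 12 cycles single genes reach 56% and clustered genes 34.2%.

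The clustered genes had a GC content of 36.3% to 53.4% with a median of 42.1%, and the single genes of 37.7% to 57.4% with a median of 45.6%, which is also the median of all protein-coding genes. GC content moved with lamin B1 membership: the 43 Cyp genes inside lamin B1 domains at 30 cycles had a median of 40.3% and the 55 outside of 47.8%. In the N18 WT library at 12 cycles the 15 Cyp genes inside had a median of 50.3% and the 83 outside of 42.6%. Over all genes the medians inside were 41.1% for lamin B1 at 30 cycles and 50.1% for N18 in WT cells at 12 cycles, so both Cyp values followed those of their library. The part of base composition in these shares was not tested.

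Across the 12 libraries, 12 Cyp genes were inside no domain at all (12.2%, against 32.9% of all genes), 23 were inside in 1 library, and 8 were inside in at least 10 libraries (8.16%, against 0.787% of all genes). The 23 were mostly 2 blocks, the 14 genes of the Cyp2c array and the 7 Cyp4f genes of chromosome 17, with Cyp2u1 and Cyp2c44. The share of all genes inside in exactly 1 library was not computed. The 8 were the genes of the single Cyp3a cluster. The 12 were Cyp20a1, Cyp7b1, Cyp7a1, Cyp4x1, Cyp51, Cyp26b1, Cyp26c1, Cyp26a1, Cyp2r1, Cyp4v3, Cyp39a1 and Cyp1b1, of which 9 are single genes. As there are 25 single genes in all, the low Cyp share of 12.2% was found in the clustered genes and not in the single ones. Clustered genes share their domains and were counted here 1 by 1.

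The sequence before the start of these genes was read from the RefSeq promoter table (GRCm38.p6) and placed on mm9 by exact match, which gave 74 of the 98 genes. For 3 of the 74 the RefSeq start lay far from the start in the mm9 annotation, at 46134 bases for Cyp2c29, 15736 for Cyp4f39 and 2339 for Cyp2ab1, so that these stretches may not precede the start counted here. Of the genes inside no domain, Cyp7b1, Cyp7a1, Cyp4x1 and Cyp39a1 are not among the 74. The number of CpG dinucleotides (CG, which reads the same on both strands) in the 250 bases before the start was counted. Promoters of the Cyp genes had a median of 2 CpG and those of all 27025 symbols in the table a median of 6. At least 10 CpG were found in 12.2% of Cyp promoters and in 38.2% of the promoters of all 27025 symbols, which are not limited to protein-coding genes. Of the 8 matched genes inside no domain, 6 had at least 10 CpG (median 15.5), and of the 66 matched genes inside domains of at least 1 library, 3 had (median 2). Without the 3 distant starts, a choice made after seeing the data, the counts were 6 of 8 and 2 of 63. By clustering, 3 of 57 clustered promoters (5.26%) and 6 of 17 single ones (35.3%) had at least 10 CpG. Clustering and domain membership were not taken apart, and genes of an array are related copies. Over all protein-coding genes with a promoter in the table, a narrower set than its 27025 symbols, the split was small. At least 10 CpG were found for 55.8% of the 4693 genes inside no domain (median 11). The value was 51.1% for the 10168 inside domains of at least 1 library (median 10). Inside lamin B1 domains at 30 cycles, 0 of 36 Cyp promoters had at least 10 CpG, and outside them 9 of 38 (23.7%). Over all genes 22% of the 2531 inside (median 2) and 58.9% of the 12330 outside (median 13) had at least 10 CpG.

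The 5 upstream stretches below show the range of CpG content among the Cyp genes. Cyp51, the sterol demethylase that every cell needs to make cholesterol (chr5:4104698-4104947, minus strand, 20 CpG), and Cyp26a1, which breaks down retinoic acid (chr19:37772048-37772297, plus strand, 20 CpG), were inside no domain. Cyp3a57 (chr5:146105888-146106137, plus strand, 0 CpG) was inside domains of all 12 libraries. Cyp2c38 (chr19:39537566-39537815, minus strand, 0 CpG) was inside the lamin B1 domain at 30 cycles alone. Cyp46a1, the cholesterol hydroxylase through which the brain clears cholesterol (chr12:109572276-109572525, plus strand, 23 CpG), had the most CpG of the 74 and was inside domains of 7 libraries. Coordinates are mm9, each stretch is written 5′ to 3′ on the strand of its gene, and capitals mark CpG.
Cyp51: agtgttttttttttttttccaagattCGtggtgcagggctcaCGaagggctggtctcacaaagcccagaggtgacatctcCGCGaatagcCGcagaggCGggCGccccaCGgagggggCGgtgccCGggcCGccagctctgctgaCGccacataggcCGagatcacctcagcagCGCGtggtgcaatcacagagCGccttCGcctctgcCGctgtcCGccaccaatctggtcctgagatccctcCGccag
Cyp26a1: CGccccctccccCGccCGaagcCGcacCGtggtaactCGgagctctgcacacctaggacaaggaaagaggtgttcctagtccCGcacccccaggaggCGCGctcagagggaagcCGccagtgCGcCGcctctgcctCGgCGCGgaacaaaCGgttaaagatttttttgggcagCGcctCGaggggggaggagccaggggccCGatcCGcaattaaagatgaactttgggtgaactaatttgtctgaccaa
Cyp3a57: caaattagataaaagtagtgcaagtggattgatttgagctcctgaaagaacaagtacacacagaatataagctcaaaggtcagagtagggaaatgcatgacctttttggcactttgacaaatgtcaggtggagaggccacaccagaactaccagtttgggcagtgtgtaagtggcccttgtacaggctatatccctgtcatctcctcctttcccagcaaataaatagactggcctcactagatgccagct
Cyp2c38: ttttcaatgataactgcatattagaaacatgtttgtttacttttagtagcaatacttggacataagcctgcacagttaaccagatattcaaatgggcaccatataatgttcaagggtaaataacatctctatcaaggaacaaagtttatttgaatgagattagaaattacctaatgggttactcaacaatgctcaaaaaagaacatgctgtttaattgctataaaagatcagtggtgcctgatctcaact
Cyp46a1: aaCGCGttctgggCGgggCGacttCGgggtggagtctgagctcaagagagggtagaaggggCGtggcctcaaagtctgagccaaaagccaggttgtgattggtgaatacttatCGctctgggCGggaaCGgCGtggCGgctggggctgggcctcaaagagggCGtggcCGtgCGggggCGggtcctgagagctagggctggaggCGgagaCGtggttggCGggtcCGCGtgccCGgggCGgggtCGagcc
At least 20 CpG, the number before Cyp51 and Cyp26a1, were found in 17.7% of the promoters of all 27025 symbols in the table. At least 23, the number before Cyp46a1, were found in 13% of them. The GC content of the stretches was 62.8% for Cyp51, 61.6% for Cyp26a1 and 67.6% for Cyp46a1, against 44.4% for Cyp3a57 and 32.4% for Cyp2c38.

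**Figure D3:**
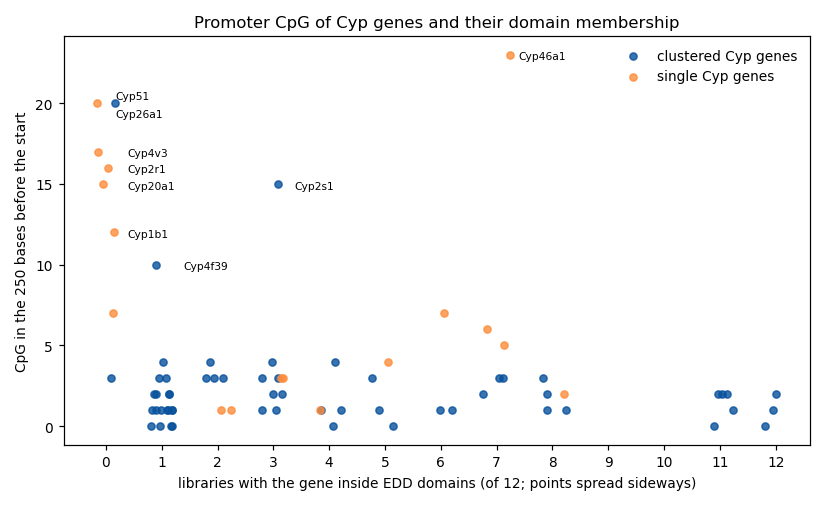
CpG dinucleotides in the 250 bases before the start (vertical axis) of the 74 Cyp genes with a matched promoter, by the number of the 12 libraries in which the gene lay inside EDD domains (horizontal axis, points spread sideways), for clustered (blue) and single (orange) genes. Of the 9 genes with at least 10 CpG, 6 stand at 0 libraries, and the others are Cyp4f39 at 1 (RefSeq start 15736 bases from the annotated one), Cyp2s1 at 3 and Cyp46a1 at 7.

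The Cyp3a cluster (Cyp3a57 to Cyp3a59, chr5:146106148-146924861, 8 genes), which encodes the major drug and steroid hydroxylases of liver and gut, was the one Cyp locus with genes inside domains of every library. All 8 genes were inside in 11 libraries. In the N18 WT library at 12 cycles the domain (chr5:144705001-146421000) ended within the array, and Cyp3a57, Cyp3a16 and Cyp3a41b were inside while Cyp3a41a, Cyp3a44, Cyp3a11, Cyp3a25 and Cyp3a59 were outside. Over all protein-coding genes, 0.171% were inside domains of all 12 libraries.

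What surrounded the array differed widely between libraries. The lamin B1 domains reached only 48.1 kb before the first and 90.1 kb (30 cycles) or 101 kb (12 cycles) past the last Cyp3a gene, spanned 0.957 Mb and 0.968 Mb, and held 9 genes each, 8 of them Cyp3a. The 3A6 WT domain at 30 cycles was of the same kind, with 0.924 Mb and 9 genes. The LAP2alpha domain at 12 cycles spanned 40.8 Mb and held 560 genes. In KO cells at 30 cycles the domain spanned 3.55 Mb with N18 and 3.58 Mb with 3A6, against 0.924 Mb with each antibody in WT cells. At 12 cycles the N18 domain spanned 2.58 Mb in KO cells and 1.72 Mb in WT cells. With 3A6 at 12 cycles the order was reversed, with 1 Mb in KO cells and 3.48 Mb in WT cells. SICER islands covered only 0.611% to 12.7% of the array in the 12 libraries. Cyp3a41b and Cyp3a41a are near-identical copies, with 80.7% of the 50-base words of Cyp3a41b and 80.1% of those of Cyp3a41a found in another gene of the array. Reads with a mapping quality below 20 had been removed by the authors, and the part of this filter over such copies was not tested.

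The Cyp4x1 to Cyp4b1 cluster (chr4:114778928-115320322, 8 genes) holds the Cyp4a genes, fatty acid omega-hydroxylases. At 30 cycles Cyp4a12a, Cyp4a12b, Cyp4a14, Cyp4a10, Cyp4a31, Cyp4a32 and Cyp4b1 were inside in KO and WT cells with N18 and likewise with 3A6, and 6 of 8 genes were inside with LAP2alpha and with lamin B1. Cyp4x1 at the edge stayed below 50% in every library. At 12 cycles 7 of 8 genes were inside with 3A6 in KO cells and in WT cells, and 0 of 8 with N18 in either genotype, with LAP2alpha or with lamin B1. Several of these domains were fitted closely to the array: those of 3A6 in KO cells at 30 cycles (0.506 Mb), N18 in WT cells at 30 cycles (0.484 Mb), 3A6 in WT cells at 30 cycles (0.561 Mb) and 3A6 in KO cells at 12 cycles (0.484 Mb) each held 7 genes, all of them Cyp. The lamin B1 domain at 30 cycles was the shortest, with 0.363 Mb and 6 genes, all of them Cyp4a.

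The Cyp2j cluster on the same chromosome (Cyp2j13 to Cyp2j5, chr4:95694225-96330845, 8 genes), which encodes epoxygenases of arachidonic acid, was found at 30 cycles alone. All 8 genes were inside with lamin B1 and with 3A6 in WT cells. With 3A6 in KO cells 5 of 8 were inside, because the domain began at chr4:95898001 within Cyp2j7-ps, of which it covered 12.9%. N18 and LAP2alpha had no domain here in any library, and all 12-cycle libraries had 0 of 8.

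The Cyp2c cluster (Cyp2c55 to Cyp2c70, chr19:39081509-40261823) is the largest Cyp array, with 14 genes and a GC content of 39%, and its enzymes act on arachidonic acid and many drugs. All 14 genes were inside with lamin B1 at 30 cycles, and 0 of 14 in the other 11 libraries. The lamin B1 domain (chr19:39061001-40293000, 1.23 Mb, EDD score 17.9) began 20.5 kb before and ended 31.2 kb after the array and held no other gene. SICER islands gave a graded picture where the domains gave all or none. They covered 50.9% of the array with lamin B1 at 30 cycles and 25.7% at 12 cycles. In WT cells at 30 cycles they covered 27.5% with 3A6 and 12.8% with N18, against 2.03% with 3A6 and 1.1% with N18 in KO cells. At 12 cycles 3A6 islands covered 12.4% in KO cells and 6.78% in WT cells, and N18 islands 1.69% and 5.89%. Chromosome 19 as a whole held 137 3A6 islands at 30 cycles in KO cells and 352 in WT cells, and 416 and 332 N18 islands. Islands touched Cyp2c29, Cyp2c54, Cyp2c50 and Cyp2c65 in 7 libraries each and Cyp2c68, Cyp2c40 and Cyp2c69 in none, and 37.3%, 42.8% and 36.2% of the 50-base words of these last 3 genes recur elsewhere in the array. This one array made 14 of the 43 Cyp genes inside lamin B1 domains at 30 cycles. Cyp2c44, a single gene elsewhere on chromosome 19, was inside with LAP2alpha at 12 cycles alone.

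On chromosome 7 the Cyp2 genes form 2 neighbouring clusters, Cyp2s1 to Cyp2a4 (chr7:26587494-27100107, 5 genes) and Cyp2b23 to Cyp2t4 (chr7:27450246-27943687, 8 genes). They hold the Cyp2b genes, inducible drug hydroxylases, and the Cyp2a genes, among them Cyp2a5, which hydroxylates coumarin. Domain borders over this block differed from library to library. LAP2alpha domains of 8.41 Mb at 30 cycles and 7.64 Mb at 12 cycles covered all 13 genes, as did an N18 KO domain of 3.42 Mb at 12 cycles. At 12 cycles N18 in WT cells covered 0 of 5 and 0 of 8. At 30 cycles N18 covered 0 of 5 and 8 of 8 in KO cells, against 2 of 5 and 0 of 8 in WT cells, with a KO domain of 0.528 Mb over the second cluster and a WT domain of 0.407 Mb over Cyp2b9 and Cyp2a4.

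The 3A6 domains moved over the same block. At 30 cycles 3A6 covered 2 of 5 and 6 of 8 in KO cells, against 1 of 5 and 3 of 8 in WT cells. At 12 cycles it covered 4 of 5 and 5 of 8 in KO cells in a domain of 1.09 Mb, against 0 of 5 and 4 of 8 in WT cells in a domain of 0.473 Mb, and Cyp2a22 was the one gene common to both. Lamin B1 at 30 cycles covered 3 of 5 and 2 of 8 in a domain of 0.781 Mb, and at 12 cycles none. Chromosome 7 held only 1 to 5 SICER islands per library, so islands could not be set beside these domains.

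**Figure D4:**
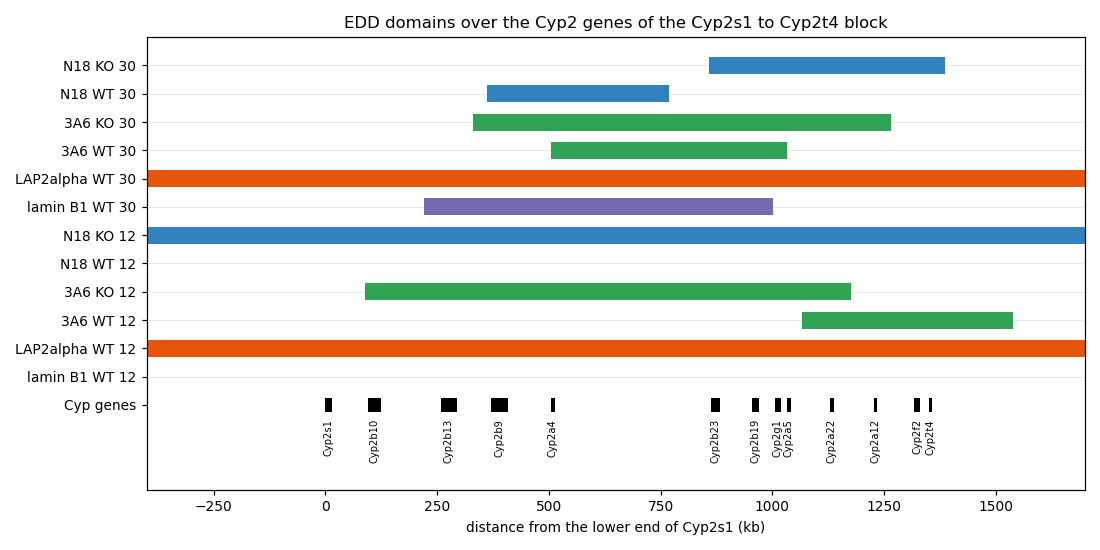
EDD domains (bars, colored by antibody) of the 12 libraries over the Cyp2 genes (black) of the Cyp2s1 to Cyp2t4 block, drawn to scale against the distance in kb from the lower end of Cyp2s1; bars that reach the frame go on beyond it. With N18 at 30 cycles the KO domain (0.528 Mb) lies over the right-hand cluster and the WT domain (0.407 Mb) over the end of the left-hand one, and at 12 cycles the KO domain covers the block while WT has none.

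The Cyp2d cluster (Cyp2d22 to Cyp2d26, chr15:82200958-82624675, 9 genes) belongs to the subfamily that in humans oxidizes many drugs. With N18 all 9 genes were inside in KO cells at 30 cycles and at 12 cycles, within domains of 16.3 Mb and 16.2 Mb that held 331 genes each, against 0 of 9 in WT cells at either sonication. With 3A6 at 12 cycles 6 of 9 were inside in KO cells, against 8 of 9 in WT cells, in a domain of 0.407 Mb with 8 genes in KO cells and of 0.429 Mb with 10 genes in WT cells. LAP2alpha, lamin B1 and 3A6 at 30 cycles had 0 of 9. SICER islands lay over this array in every library, covering 25.7% (lamin B1 at 30 cycles) to 79% (N18 in KO cells at 30 cycles) of it.

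The Cyp4f genes of chromosome 17, among them omega-hydroxylases of leukotrienes, form a cluster of 5 (Cyp4f39 to Cyp4f15, chr17:32605404-32840297) and a pair (Cyp4f14 and Cyp4f13). All 7 were inside with 3A6 in WT cells at 12 cycles, in a domain of 0.671 Mb (chr17:32428001-33099000) that held 18 genes, and in no other library. Islands nonetheless touched Cyp4f39 in 10 libraries and Cyp4f13 in 9. The pair Cyp1a2 and Cyp1a1, the enzymes induced by the aryl hydrocarbon receptor, was inside with N18 in KO cells at 30 cycles (0.594 Mb domain) and with LAP2alpha at 12 cycles (0.671 Mb domain).

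Among the single genes of families 1 to 4, Cyp2e1, which oxidizes ethanol, was inside in 8 libraries. Its lamin B1 domain at 30 cycles ended 0.126 kb past the gene, and the 3A6 KO domain at 12 cycles covered 3.23% of it. Cyp2w1 was inside in 7 libraries, Cyp3a13 in 4, Cyp4f18 and Cyp2ab1 in 3 each, and Cyp2u1 in 1. Cyp1b1, Cyp2r1 and Cyp4v3 were inside in none, although islands touched Cyp4v3 in 7 libraries.

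All 6 steroid hormone genes were inside with LAP2alpha at 12 cycles, whose domains held 35.9% of all genes. With N18 at 30 cycles 5 of them were inside in KO cells (28.5% of all genes were), against 1 in WT cells (5.89% of all genes were). Cyp11a1, whose enzyme cuts the cholesterol side chain, was inside with N18 in KO cells at 30 cycles and with LAP2alpha at 12 cycles. Cyp17a1 was inside with N18 in WT cells and LAP2alpha at 12 cycles. Cyp21a1, needed for glucocorticoids and mineralocorticoids, was inside in these 2 libraries and with N18 in KO cells at 30 cycles. The pair Cyp11b1 and Cyp11b2, for the last steps to corticosterone and aldosterone, was inside in 4 libraries. Cyp19a1 (aromatase, which makes estrogens) had another pattern, with 7 libraries that included lamin B1 at 30 cycles, and was 1 of the 2 single Cyp genes there, with Cyp2e1.

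The 7 genes of bile acid and cholesterol metabolism split into those inside many domains and those inside none. Cyp46a1 was inside in 7 libraries, in domains of 7.19 Mb to 17.4 Mb. Cyp27a1, for the oxidation of the sterol side chain, was inside in 6, and Cyp8b1, which makes cholic acid, in 5. Cyp7a1, the rate-limiting enzyme of bile acid synthesis, Cyp7b1, Cyp39a1 and Cyp51 were inside in 0. Islands touched Cyp7b1 and Cyp39a1 in 7 libraries each, with no EDD domain over either.

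Of the vitamin D genes, Cyp24a1, which inactivates the hormone, was inside in 8 libraries, all but the 2 lamin B1 libraries and the 2 lamin A/C libraries of WT cells at 30 cycles. Cyp27b1, which makes the active hormone, was inside with N18 in WT cells and LAP2alpha at 12 cycles, and Cyp2r1 in none. The 3 Cyp26 genes, which degrade retinoic acid, lie at 2 loci and were inside in none. Cyp20a1, an orphan enzyme, was inside in none either.

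Lamin A/C domains of KO cells were set against those of WT cells within each antibody and sonication, to ask how Cyp genes were placed without LAP2alpha. A gene inside in KO cells alone was called gained, in both kept, and in WT cells alone lost. With N18 at 30 cycles 30 Cyp genes were gained (30.6%, against 24.4% of all genes), 16 kept (16.3% against 4.13%) and 2 lost (2.04% against 1.76%). The gained genes lay at 13 loci and included all 9 Cyp2d genes, the 8 genes of Cyp2b23 to Cyp2t4, Cyp1a1 and Cyp1a2. The kept genes were the Cyp4a and Cyp4b1 genes, the Cyp3a cluster and Cyp19a1.

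With N18 at 12 cycles 30 Cyp genes were again gained (30.6%, against 7.64% of all genes), 10 were kept (10.2% against 15.5%) and 5 lost (5.1% against 11.9%). The 30 gained genes lay at 7 loci only, because 27 of them were in arrays: the Cyp2 genes of chromosome 7, Cyp2d and 5 of the Cyp3a genes. All 5 lost genes were single, namely Cyp3a13, Cyp8b1, Cyp27b1, Cyp21a1 and Cyp17a1, and for Cyp27b1 the KO library had no domain on the whole of its chromosome 10.

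The 3A6 antibody gave other counts. At 30 cycles 7 Cyp genes were gained (7.14%, against 8.94% of all genes), 25 kept (25.5% against 3.64%) and 3 lost (3.06% against 5.75%), the lost genes being Cyp2j13, Cyp2j12 and Cyp2j7-ps at the edge of their array. The 25 kept genes lay at only 6 loci, and 24 of them were clustered. At 12 cycles 9 Cyp genes were gained (9.18%, against 5% of all genes), 24 kept (24.5% against 5.7%) and 18 lost (18.4% against 15.4%), and the lost genes included the 7 Cyp4f genes of chromosome 17. The 24 kept genes likewise lay at 6 loci, and 22 of them were clustered.

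At 30 cycles Cyp24a1, Cyp2w1, Cyp2a5, Cyp2a22 and Cyp2a12 were gained with both antibodies (5.1% of Cyp genes, against 4.23% of all genes). They were 5 of the 7 Cyp genes gained with 3A6 and of the 30 gained with N18. Over all genes 941 were gained with both, of 1986 gained with 3A6 and 5415 gained with N18. At that sonication 0 Cyp genes were lost with both (0.337% of all genes were). The Cyp genes kept with both numbered 15, the 7 genes from Cyp4a12a to Cyp4b1 and the 8 Cyp3a genes (15.3% of Cyp genes, against 0.652% of all genes). At 12 cycles Cyp2b10, Cyp2b13, Cyp2b9, Cyp2a4, Cyp2b23, Cyp2b19, Cyp2g1 and Cyp2a5, all neighbours on chromosome 7, and Cyp2ab1 were gained with both (9.18% of Cyp genes, against 2.21% of all genes). These 9 were all the Cyp genes gained with 3A6 and 9 of the 30 gained with N18, and they lay at only 3 loci. Over all genes 492 were gained with both, of 1111 gained with 3A6 and 1697 gained with N18. Cyp3a13 and Cyp8b1 were lost with both at 12 cycles (2.04% of Cyp genes, against 5.67% of all genes), and Cyp24a1, Cyp46a1, Cyp3a57, Cyp3a16 and Cyp3a41b were kept with both (5.1% of Cyp genes, against 4.34% of all genes). Of the genes gained with both at 1 sonication, Cyp2a5 alone was gained with both at the other.

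**Figure D5:**
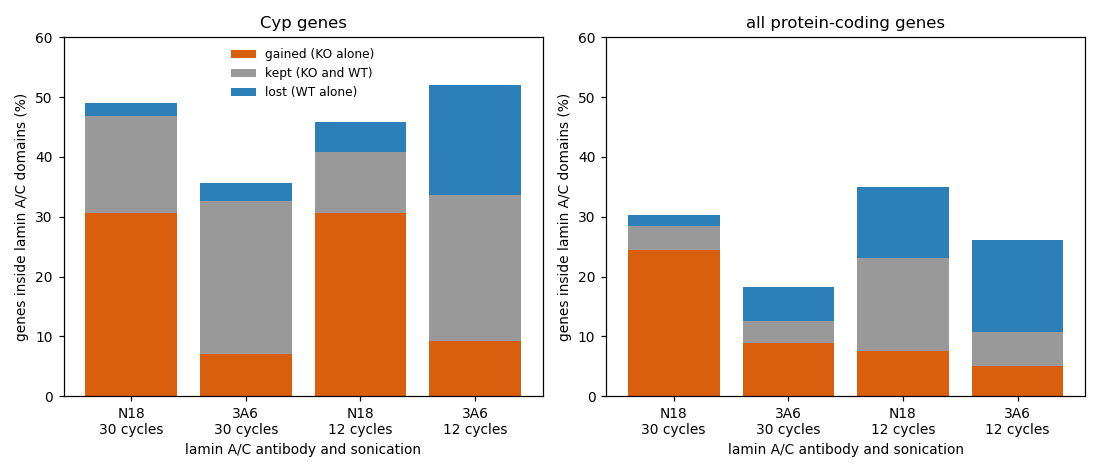
Percent of Cyp genes (left) and of all protein-coding genes (right) inside lamin A/C domains of KO cells alone (gained, orange), of KO and WT cells (kept, gray) or of WT cells alone (lost, blue), for N18 and 3A6 at 30 and 12 cycles, 1 library per genotype and no error bars. With N18 the gained share of Cyp genes is 30.6% at both sonications, while that of all genes is 24.4% at 30 cycles and 7.64% at 12 cycles.

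With lamin B1 at 30 cycles alone 35 Cyp genes were inside (35.7%, against 9.57% of all genes), at both sonications 8 (8.16% against 7.17%) and at 12 cycles alone 0 (0% against 0.598%). The 35 were the Cyp2c, Cyp2j and Cyp4a arrays, 5 of the chromosome 7 genes, Cyp2e1 and Cyp19a1, and the 8 were the Cyp3a cluster. With SICER islands the 2 sonications gave nearly the same number, with 7 Cyp genes touched at 30 cycles alone and 8 at 12 cycles alone. With the domains that scored above the median of their library, 22 were inside at 30 cycles alone and 8 at 12 cycles alone. With 3A6 in WT cells 12 Cyp genes were inside at 30 cycles alone (12.2% against 8.39%), 16 at both (16.3% against 1.01%) and 26 at 12 cycles alone (26.5% against 20.1%). These 16 genes were at 3 loci.

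With N18 in WT cells 15 Cyp genes were inside at 30 cycles alone (15.3% against 2.7%), 3 at both (3.06% against 3.18%) and 12 at 12 cycles alone (12.2% against 24.2%). The 15 included 14 clustered genes, and of the 12 at 12 cycles alone 10 were single. In KO cells the 2 sonications shared more Cyp genes than in WT cells, and also more of all genes. With N18 the share at both was 32.7% of Cyp genes and 16.3% of all genes, against 3.06% and 3.18% in WT cells. With 3A6 it was 23.5% and 5.23%, against 16.3% and 1.01% in WT cells. The N18 counts in KO cells were 14 at 30 cycles alone, 32 at both and 8 at 12 cycles alone (12.2%, 16.3% and 6.83% of all genes). The 3A6 counts in KO cells were 9, 23 and 10 (7.35%, 5.23% and 5.46% of all genes). With LAP2alpha 7 Cyp genes were inside at 30 cycles alone, 28 at both and 11 at 12 cycles alone (12.1%, 20.2% and 15.7% of all genes).

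The genes found at 12 cycles with N18 in WT cells were all 15 also inside LAP2alpha domains at 12 cycles (92.6% of all genes of that library were). Of the 42 Cyp genes inside 3A6 WT domains at 12 cycles, 20 (47.6%) were inside LAP2alpha domains at 12 cycles, where over all genes 92.5% were. The 20 are 51.3% of the 39 Cyp genes of LAP2alpha. Those outside were the Cyp4a, Cyp2d and Cyp4f arrays. Of the 28 Cyp genes inside 3A6 WT domains at 30 cycles, 26 (92.9%, and 60.5% of the 43 of lamin B1) were inside lamin B1 domains at 30 cycles, and over all genes 93.8% were.

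The 50% rule decided few values, since 8 of 1176 pairs of gene and library were partly covered. Of these, the ones counted as inside were Cyp4b1 (68.2%, 3A6 KO at 12 cycles), Cyp3a59 (74%, N18 WT at 30 cycles), Cyp4a32 (84.5%, lamin B1 at 30 cycles) and Cyp2a4 (90%, 3A6 WT at 30 cycles). Those counted as outside were Cyp4x1 (38.9%, 3A6 WT at 12 cycles), Cyp2j7-ps (12.9%, 3A6 KO at 30 cycles), Cyp2a5 (8.21%, 3A6 WT at 30 cycles) and Cyp2e1 (3.23%, 3A6 KO at 12 cycles).

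SICER islands, the narrower regions, touched a larger share of Cyp genes than of all genes in every library. With lamin B1 they touched 18.4% of Cyp genes and 8.17% of all genes at 30 cycles, and 19.4% of Cyp genes and 8.93% of all genes at 12 cycles. With N18 at 30 cycles they touched 27.6% of Cyp genes and 22.7% of all genes in KO cells, and 25.5% of Cyp genes and 14.6% of all genes in WT cells. The shares were close for N18 in WT cells at 12 cycles (26.5% of Cyp genes and 26% of all genes) and for LAP2alpha at 30 cycles (20.4% and 18.5%) and at 12 cycles (29.6% and 27.8%). With 3A6 at 12 cycles they touched 21.4% of Cyp genes and 12.9% of all genes in KO cells, and 34.7% of Cyp genes and 22.3% of all genes in WT cells. Cyp genes are longer than most, with a median of 22.1 kb against 15.5 kb for all genes, and the part of gene length in these shares was not tested.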

How the data were processed

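The authors trimmed reads with cutadapt, mapped them to mm9 with Bowtie2 2.1.0, kept mapping qualities of at least 20, removed duplicates and downsampled each ChIP library to its input with Picard. The deposited EDD domain lists (EDD 1.0.2, 11 kb bins, gap penalty 5, FDR 0.1) give a score per domain, and the deposited SICER 1.1 islands (window 1000 bp, gap 3000 bp, FDR 0.01) give counts of reads per island. Total depth per library was not used here, so no precision was derived from it. Scores entered the score alternative alone, and island read counts the totals alone. From these files the percent of each gene body covered was computed in Python 3.11.15 with numpy 2.4.6 and pysam 0.24.0, using the NCBIM37 genome and GENCODE M1 (longest record per symbol), after the script had been tested on simulated data (200 of 200 planted coverages recovered). Groups were taken from the sample titles. With 1 library per group, counts were given beside those of all 22225 genes, with no test. The named genes are every cluster of at least 3 Cyp genes, every Cyp gene gained or lost with both antibodies, those inside at least 10 libraries, those covered by 10% to 90% in at least 4 libraries (none were), and the single genes by role. Further pairs and genes named in passing were chosen after their values were seen. The members and lists were chosen with earlier results of these data known. The alternatives were the transcription start, 1 bp or 90% covered, domains scoring above the library median, domains of at least 500 kb, SICER islands, cluster distances of 100 kb or 500 kb, and 1 value per locus. Leaving out promoters over 1000 bases from the annotated start was added after seeing the data.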

Additional observations from a re-analysis of the deposited data

Results flagged for a closer look

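Effects of the same contrast that went in opposite directions are given here. None of these differences was tested, since each value rests on 1 KO and 1 WT library. At 12 cycles the number of Cyp genes inside domains in KO cells minus that in WT cells was 25 with N18 (40 in KO cells and 15 in WT cells) and -9 with 3A6 (33 in KO cells and 42 in WT cells). With 3A6 the same difference was 4 at 30 cycles (32 in KO cells and 28 in WT cells) and -9 at 12 cycles. These values depended on the regions used. With 3A6 and the domains scoring above the median of their library the difference was 8 at 30 cycles (24 in KO cells and 16 in WT cells) and 4 at 12 cycles (20 in KO cells and 16 in WT cells), and with SICER islands it was -9 (13 in KO cells and 22 in WT cells) and -13 (21 in KO cells and 34 in WT cells), so that the sonications no longer differed in direction. With N18 at 12 cycles it was 26 with the higher-scoring domains (39 in KO cells and 13 in WT cells) and 3 with islands (29 in KO cells and 26 in WT cells). Chromosome 7, which holds 15 of the Cyp genes, had only 1 to 5 islands per library, and none of those genes was touched in any library. For the cluster from Cyp2s1 to Cyp2a4 at 30 cycles the difference was -2 of 5 genes with N18 and 1 with 3A6, and with the higher-scoring domains 0 with N18 and 2 with 3A6. For the same cluster with N18 it was -2 at 30 cycles and 5 at 12 cycles, and with the higher-scoring domains 0 and 5. Islands were too few on chromosome 7 to be compared. For the Cyp2d cluster at 12 cycles it was 9 of 9 genes with N18 and -2 with 3A6. With the higher-scoring domains it was 9 with N18 and 0 with 3A6, and with islands 1 with N18 (8 in KO cells and 7 in WT cells) and 0 with 3A6 (8 in each).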

How the results depend on the processing

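Of the counts of Cyp genes, all 32 stayed within 1.5 times of their value under each of the transcription start, 1 bp and 90% rules, and the 24 percentages of clustered and single genes moved by at most 2.5 percentage points at cluster distances of 100 kb and 500 kb. The other settings moved values, and the cause was not tested. With domains scoring above the median of their library, 19 of 32 counts moved. Genes inside then numbered 27 for N18 in KO cells and 9 in WT cells, 16 for 3A6 in WT cells and 22 for lamin B1 at 30 cycles, and 20 for 3A6 in KO cells and 16 in WT cells at 12 cycles. Gained genes numbered 19 for N18 and 11 for 3A6 at 30 cycles, and lost genes 1 for N18 at 30 cycles, 3 for N18 at 12 cycles and 6 for 3A6 at 12 cycles. Genes at 30 cycles alone numbered 3 for N18 in KO cells, 6 for N18 in WT cells, 2 for LAP2alpha and 22 for lamin B1, and at 12 cycles alone 15 for N18 in KO cells, 4 for 3A6 in KO cells, 8 for 3A6 in WT cells and 8 for lamin B1. With domains of at least 500 kb, 7 counts moved: 9 genes inside for N18 in WT cells at 30 cycles, 20 for 3A6 in KO cells at 12 cycles, 1 lost for N18 at 30 cycles, 6 at 30 cycles alone for N18 in WT cells, 16 at 30 cycles alone and 4 at 12 cycles alone for 3A6 in KO cells, and 14 at 12 cycles alone for 3A6 in WT cells. With SICER islands, 17 counts moved, and none of the 15 Cyp genes of chromosome 7 was touched in any library. Genes touched at 30 cycles numbered 27 for N18 in KO cells, 13 for 3A6 in KO cells, 20 for LAP2alpha and 18 for lamin B1, and at 12 cycles 21 for 3A6 in KO cells, 26 for N18 in WT cells and 19 for lamin B1. Gained genes numbered 11 for N18 at 30 cycles, 10 for N18 at 12 cycles and 4 for 3A6 at 12 cycles, and lost genes 9 for N18 and 17 for 3A6 at 30 cycles. Genes at 30 cycles alone numbered 7 for N18 in KO cells, 8 for N18 in WT cells, 7 for 3A6 in WT cells and 7 for lamin B1, with 8 at 12 cycles alone for lamin B1. Counted once per locus, 8 of 12 percentages lay outside the 95% Wilson interval of the value by gene, which treats genes of an array as independent: 21.6% for 3A6 in KO cells, 8.11% for N18 and 10.8% for 3A6 in WT cells and 18.9% for lamin B1 at 30 cycles, and 21.6% for 3A6 in KO cells, 29.7% for N18 in WT cells, 51.4% for LAP2alpha and 2.7% for lamin B1 at 12 cycles. No paired analysis was possible because each group had 1 library and no result came from a test. No replicate could be left out for the same reason.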

Other observations

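Genes that work with the P450 enzymes were set beside them, from a list of 19 of which 18 matched a symbol of the annotation. None of the 18 was inside lamin B1 domains at 30 or 12 cycles, nor inside 3A6 domains of KO cells at either sonication, nor inside N18 or 3A6 domains of WT cells at 30 cycles. Those 6 libraries held 5.89% (N18 in WT cells at 30 cycles) to 16.7% (lamin B1 at 30 cycles) of all genes. The N18 library of KO cells at 30 cycles held 8 of 18 (44.4%, against 28.5% of all genes) and that at 12 cycles 7 (38.9% against 23.1%). In WT cells at 12 cycles N18 held 9 (50% against 27.4%) and 3A6 held 7 (38.9% against 21.1%), and LAP2alpha held 7 (38.9% against 32.3%) at 30 cycles and 9 (50% against 35.9%) at 12 cycles.

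Por, the reductase that passes electrons to the microsomal P450 enzymes, was inside in 4 libraries, and Fdxr, which starts the electron chain of the mitochondrial ones, in 6, whereas its partner Fdx1 was inside in none. Of the transcription factors that control Cyp genes, Rxra and Hnf4a were inside in 6 libraries each and Ppara in 5, while Arnt, Nr1i2 (the receptor that induces Cyp3a11), Nr1h4 and Vdr were inside in none. Ahr was inside with LAP2alpha at 30 cycles alone. Of the P450 enzymes that carry another symbol, Ptgis (prostacyclin synthase) was inside in 6 libraries and Tbxas1 (thromboxane synthase) in none.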
